A study of Mus musculus with 3 samples.

Results

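Nuclear receptor genes of the retinoid, vitamin D, steroid, oxysterol, fatty acid and haem classes were followed across T cell cultures given different cytokines. The 10 genes were Rara, Rarg, Rxra, Rxrb, Vdr, Nr3c1, Nr1h2, Ppard, Pparg and Nr1d2, and every probe set (the group of probes that reports 1 transcript) whose only gene symbol was one of these was taken. Of the 10 genes 9 had such a probe set, 20 probe sets in all, out of 18193 named genes on the array; Nr1h2, the oxysterol receptor LXR beta, was not analysed here. The cells were CD4+CD25- T cells from spleen and lymph node of female mice, 6 to 8 weeks old, on a BALB/c background with both Stat6 and T-bet knocked out. All cultures were activated over 2 days, by anti-CD3 bound to the plate (5 µg/ml) together with anti-CD28 (1 µg/ml). One culture received IL-6 and TGFbeta, one received IL-6 and IL-23, and one received TGFbeta alone; the interleukins were used at 10 ng/ml and TGFbeta at 5 ng/ml. There was 1 Affymetrix array per condition, so every ratio describes 2 arrays, has no p-value, and leaves out the spread between cultures and mice. Whether the 3 cultures came from the same mice, and whether mice were pooled, is not given in the sources used here.

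Nuclear receptors are transcription factors that are switched by small, fat-soluble ligands. The retinoic acid receptors (Rara, Rarg), the vitamin D receptor (Vdr), the peroxisome proliferator-activated receptors (Ppard, Pparg) and the liver X receptors (Nr1h2) bind DNA as pairs with a retinoid X receptor (Rxra, Rxrb), whereas the glucocorticoid receptor (Nr3c1) acts mainly as a pair with itself and Nr1d2, which encodes the haem-binding clock repressor REV-ERB beta, often acts alone. In CD4 T cells, retinoic acid together with TGFbeta is known to favour regulatory T cells and to restrain Th17 cells, and glucocorticoids and vitamin D are known to damp effector cytokines.

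Rara and Nr1d2 were the members that passed the 2-fold rule used below, so the start regions of these 2 genes are shown first. The windows are from RefSeq on GRCm38.p6 and run from 250 bases before to 50 bases after an annotated transcription start, 5′ to 3′ on the gene's strand. Windows were taken for 8 of the 9 measured members, all but Nr3c1. Rara has 4 annotated windows, and the array does not tell which start was in use; the most upstream and the most downstream are shown. Capitals mark a canonical E-box (CACGTG), the motif bound by clock and Myc family proteins, or the core nuclear receptor motif AGGTCA.
Rara, chr11:98937446-98937745, plus strand: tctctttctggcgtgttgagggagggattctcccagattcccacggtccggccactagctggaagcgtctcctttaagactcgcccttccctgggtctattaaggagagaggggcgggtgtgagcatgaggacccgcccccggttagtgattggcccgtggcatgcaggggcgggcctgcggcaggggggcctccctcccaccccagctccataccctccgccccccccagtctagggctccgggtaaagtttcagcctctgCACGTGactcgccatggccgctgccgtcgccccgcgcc
Rara, chr11:98964622-98964921, plus strand: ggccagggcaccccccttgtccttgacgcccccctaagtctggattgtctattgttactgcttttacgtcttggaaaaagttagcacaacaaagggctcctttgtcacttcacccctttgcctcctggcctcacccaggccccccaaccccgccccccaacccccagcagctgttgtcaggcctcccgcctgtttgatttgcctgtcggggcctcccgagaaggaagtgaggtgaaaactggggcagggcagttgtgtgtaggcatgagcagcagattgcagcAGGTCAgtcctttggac
Nr1d2, chr14:18239057-18239356, minus strand: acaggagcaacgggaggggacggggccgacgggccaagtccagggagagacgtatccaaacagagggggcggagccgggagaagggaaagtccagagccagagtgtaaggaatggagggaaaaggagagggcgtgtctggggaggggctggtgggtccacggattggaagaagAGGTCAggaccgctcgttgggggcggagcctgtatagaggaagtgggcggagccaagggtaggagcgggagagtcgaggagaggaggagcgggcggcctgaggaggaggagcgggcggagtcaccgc

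The upstream Rara window holds an E-box that begins 12 bases after the start site, and 7.15% of all 32851 windows hold this motif. The downstream Rara window holds AGGTCA 33 bases after its start, and the Nr1d2 window holds it 77 bases before its start. AGGTCA or its reverse complement TGACCT is in 16.3% of all windows, and also in windows of Rarg, Rxra and Pparg. Of the other motifs searched on both strands, GGGTCA (13.7% of windows) was in windows of Rara, Rxra and Pparg, and the STAT core TTCNNNGAA (8.30%) was in a window of Rara. The AP-1 core TGACTCA (5.20%) and the Smad box GTCTAGAC (0.213%) were in none of the members' windows taken, and Nr3c1 was not searched. The GC box GGGCGG (35.7%) was in at least 1 window of each of the 8 genes. The percentages are shares of single windows, and a gene with several windows has more places for a match. The windows shown were 66.3% and 58.3% (Rara) and 65.7% (Nr1d2) G or C, against a median of 52.7% over all windows. All these motif matches are letters in a window and were not tested as binding sites.

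Levels below are quantile-normalized intensities in arbitrary units, so levels are compared between arrays and not between genes. The deposited medians were 28.1 for IL-6/TGFbeta, 17.8 for IL-6/IL-23 and 35.8 for TGFbeta, so before scaling the dimmest array was that of IL-6/IL-23. A floor of 49.7 was set from genes restricted to other tissues, lower values were raised to it for ratios, and 38.9% of probe sets lay above it on each array. Both knocked-out genes gave signal: Stat6 read 223, 191 and 259, and Tbx21, which encodes T-bet, read 118, 205 and 190 on the IL-6/TGFbeta, IL-6/IL-23 and TGFbeta arrays. The removed part of each gene is not stated, so these probe sets check nothing. All 9 named CD4 T cell markers were above the floor on every array. Of 5 CD8 T and NK cell markers 3 were above it on each array, of 5 B cell markers 1, 0 and 0, and of 7 myeloid markers 1, 0 and 2.

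Of the 9 measured receptor genes, 7 were above the floor on all 3 arrays, Rara was above it on 2, and Pparg on none. A gene was called where 2 arrays differed by 2-fold or more and the higher value exceeded the floor. Against the TGFbeta array, 0 of 8 members read were called higher and 0 lower on the IL-6/TGFbeta array, beside 2.82% and 2.2% of 9406 genes. Against the IL-6/IL-23 array, 2 of 8 were called higher and 0 lower on the IL-6/TGFbeta array, beside 3.95% and 3.64% of 9580 genes. Between the remaining pair, 0 of 8 were called higher and 2 lower with IL-6/IL-23 than with TGFbeta, beside 3.67% and 3.53% of 9484 genes. Both counts of 2 are the same genes, Rara and Nr1d2, and both rest on the one IL-6/IL-23 array, which these comparisons share. IL-23 was given only in the culture without TGFbeta. For both genes, the presence of IL-23 and the lack of TGFbeta therefore cannot be told apart. Counts of this size are too small to set the family apart from other genes.

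The median log2 ratio of the 8 members was -0.21 for IL-6/TGFbeta over TGFbeta, against 0.03 over all genes read. It was 0.11 for IL-6/TGFbeta over IL-6/IL-23 (-0.04 for all genes read) and -0.39 in the comparison of IL-6/IL-23 over TGFbeta (0.06 for all genes read), with Rara entered at its bound in these 2. As an error, only the scatter among probe sets of 1 gene was at hand; in log2 ratios its SD was 0.23, 0.29 and 0.30 in these comparisons. By that yardstick 3, 2 and 3 of the 8 members lay more than 2 SD from a ratio of 0. The share of all genes past that cut was not counted, so these counts do not set the members apart from other genes. Scaling sets the balance of the calls over all genes for IL-6/TGFbeta over TGFbeta: 265 higher and 207 lower after quantile normalization, 203 and 254 after median scaling, and 124 and 687 as deposited. For IL-6/TGFbeta over IL-6/IL-23 they were 378 higher and 349 lower, 293 and 490, and 1068 and 130. For IL-6/IL-23 over TGFbeta they were 348 higher and 335 lower, 383 and 333, and 81 and 3241.

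**Figure D1:**
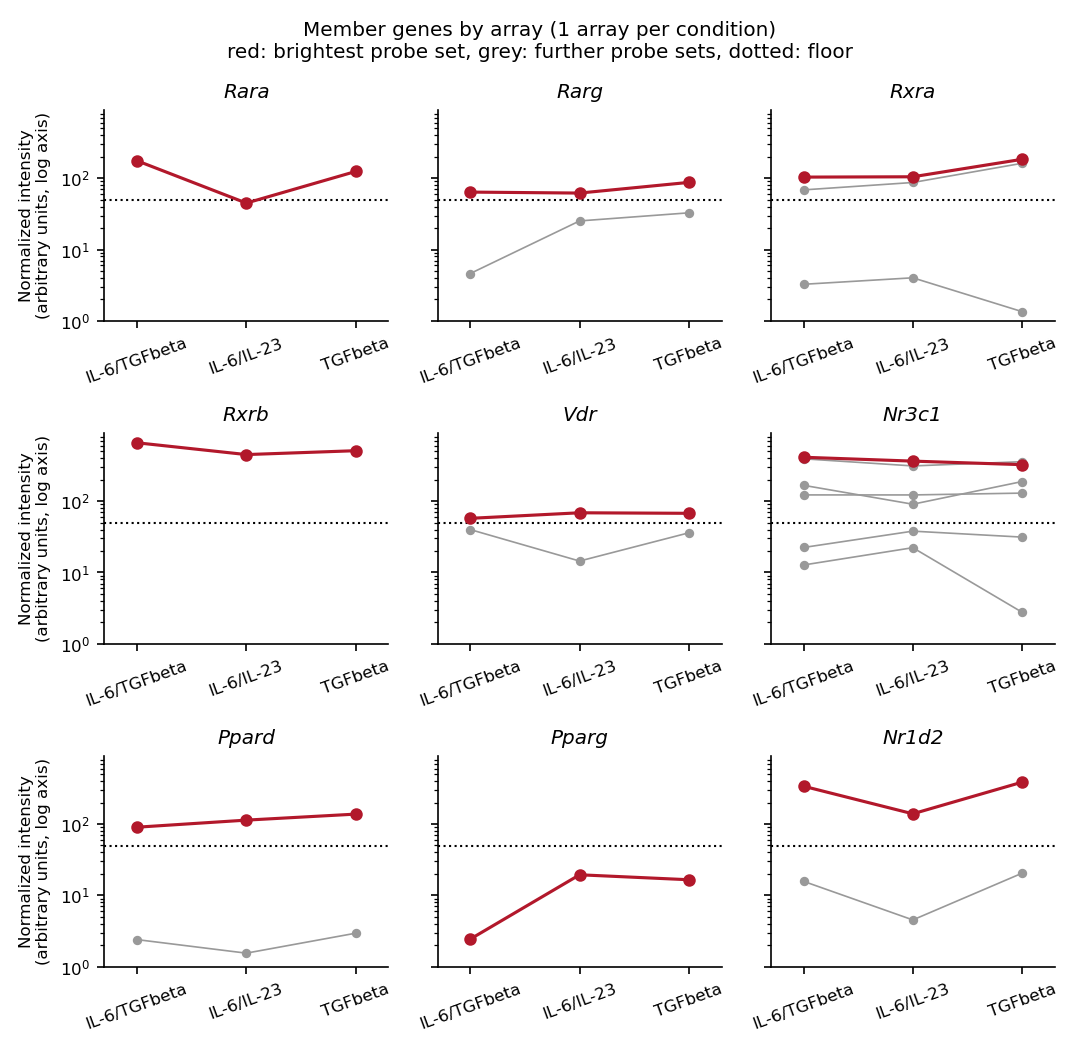
Normalized intensity (arbitrary units, log axis) of each of the 9 measured genes on the IL-6/TGFbeta, IL-6/IL-23 and TGFbeta arrays. Each line joins the values of 1 probe set, red for the brightest and grey for the others, and the dotted line is the floor of 49.7; Rara and Nr1d2 dip on the IL-6/IL-23 array, Rxra is highest on the TGFbeta array, and Pparg stays under the floor.

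Rara, which encodes the retinoic acid receptor alpha, read 176 with IL-6/TGFbeta, 44.8 with IL-6/IL-23 and 124 with TGFbeta. Both cultures with TGFbeta were high, and the culture with IL-6 and IL-23 was under the floor. Rara was therefore at least 3.53-fold higher with IL-6/TGFbeta than with IL-6/IL-23. With IL-6/IL-23 it was at least 2.50-fold lower than with TGFbeta. Between the 2 cultures with TGFbeta its log2 ratio was 0.50, short of 2-fold and 2.17 times the probe-set SD. The deposited intensities were 181, 29.9 and 176, so the gap to the IL-6/IL-23 array was present before scaling. Rara has a single probe set, so its ratios have no second reading on these arrays.

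Rarg, which encodes retinoic acid receptor gamma, read 63.9 with IL-6/TGFbeta, 61.9 with IL-6/IL-23 and 87.4 with TGFbeta. All 3 values were close to the floor, and the highest was that of TGFbeta alone. Its log2 ratios were -0.45 for IL-6/TGFbeta over TGFbeta, 0.05 for IL-6/TGFbeta over IL-6/IL-23 and -0.50 for IL-6/IL-23 over TGFbeta. A further probe set of Rarg was under the floor on every array.

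Rxra, the retinoid X receptor alpha that pairs with most of the other members, read 104 with IL-6/TGFbeta, 105 with IL-6/IL-23 and 184 with TGFbeta. The 2 cultures with IL-6 were alike and the culture without it was highest. The log2 ratio was -0.83 for IL-6/TGFbeta over TGFbeta and -0.81 for IL-6/IL-23 over TGFbeta, 3.60 and 2.68 times the probe-set SD but under 2-fold. Both ratios share the same TGFbeta array, so they are not separate readings. A further probe set read 68.6, 87.1 and 162, with log2 ratios of -1.24 and -0.89, so the first of these passed 2-fold on that probe set. The last of the 3 probe sets was under the floor throughout. The summed intensity of the 7 myeloid markers was 165, 136 and 286 on the IL-6/TGFbeta, IL-6/IL-23 and TGFbeta arrays, also highest with TGFbeta. Csf1r, the receptor of the macrophage growth factor, was above the floor with IL-6/TGFbeta and with TGFbeta, and Mpeg1, a macrophage gene, with TGFbeta only. Mpeg1 read 25.7, 21.9 and 153 on the IL-6/TGFbeta, IL-6/IL-23 and TGFbeta arrays. The peak of the sum with TGFbeta rests on Mpeg1 alone, so the sum and Mpeg1 are not separate readings. Of the 7 markers 5 were under the floor on all arrays. Csf1r was highest with IL-6/TGFbeta, at 79.4, 40.1 and 63.2, with a log2 ratio of 0.33 for IL-6/TGFbeta over TGFbeta. The part of such cells in the Rxra difference was not tested, and in bulk RNA fewer cells of a type and less RNA per cell cannot be told apart.

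Rxrb, the retinoid X receptor beta, read 657 with IL-6/TGFbeta, 449 with IL-6/IL-23 and 509 with TGFbeta. It was thus highest with IL-6/TGFbeta, and its log2 ratios of 0.55 over IL-6/IL-23 and 0.37 over TGFbeta were both under 2 probe-set SD. The order differs from that of Rxra, which was highest with TGFbeta alone.

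**Figure D2:**
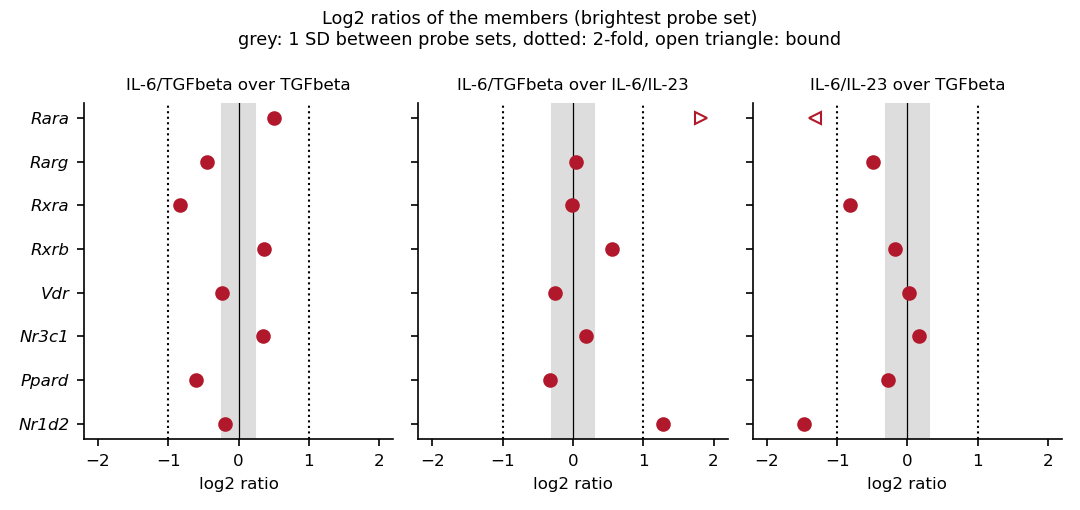
Log2 ratios of the brightest probe set of 8 members in the 3 comparisons, with the grey band at 1 SD between probe sets of a gene and dotted lines at 2-fold. Rara (open triangles, bounds) and Nr1d2 pass 2-fold in both comparisons that use the IL-6/IL-23 array, and Rxra lies at -0.83 and -0.81 against TGFbeta.

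Vdr, the vitamin D receptor, read 57.4 with IL-6/TGFbeta, 68.6 with IL-6/IL-23 and 67.5 with TGFbeta. These values were just above the floor and their log2 ratios lay between -0.26 and 0.02. A further probe set of Vdr was under the floor on all arrays. A 2-fold rise on any array could have been read, whereas a 2-fold fall would have ended at the floor.

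Nr3c1, which encodes the glucocorticoid receptor, had 6 probe sets, of which 4 were above the floor. The brightest read 412 with IL-6/TGFbeta, 364 with IL-6/IL-23 and 324 with TGFbeta, with log2 ratios of 0.34 over TGFbeta and 0.18 over IL-6/IL-23. A second read 392, 311 and 357, and a dimmer one 122, 122 and 129. The log2 ratios of these 3 probe sets were at most 0.34 in size in every comparison. The remaining one read 167 with IL-6/TGFbeta, 90.5 with IL-6/IL-23 and 188 with TGFbeta. Its log2 ratio for IL-6/IL-23 over TGFbeta was -1.06, past 2-fold, where the brightest probe set gave 0.16 and the others -0.20 and -0.08. In that comparison the probe sets of Nr3c1 thus disagreed in sign and size. Its identifier has the suffix that marks probes matching several transcripts, and whether it reads another transcript was not tested.

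Ppard, the fatty acid receptor PPAR delta, read 90.3 with IL-6/TGFbeta, 113 with IL-6/IL-23 and 138 with TGFbeta. Its log2 ratio of -0.61 for IL-6/TGFbeta over TGFbeta was 2.65 times the probe-set SD and under 2-fold, while the other ratios were -0.33 and -0.28. A further Ppard probe set was under the floor throughout, and 1 more that also names another gene was left out. Pparg, the receptor best known from fat cells and macrophages, read 2.44, 19.4 and 16.6 with IL-6/TGFbeta, IL-6/IL-23 and TGFbeta. All of these were under the floor, so no ratio was read for Pparg.

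Nr1d2, the clock repressor, read 339 with IL-6/TGFbeta, 139 with IL-6/IL-23 and 386 with TGFbeta. As for Rara, both cultures with TGFbeta were high and the culture with IL-6 and IL-23 was low, here with all 3 values above the floor. Nr1d2 was 2.43-fold higher with IL-6/TGFbeta than with IL-6/IL-23 (log2 1.28, 4.36 times the probe-set SD). It was 2.78-fold lower with IL-6/IL-23 than with TGFbeta (log2 -1.47), and IL-6/TGFbeta over TGFbeta gave -0.19, within 1 SD. Its other probe set read 15.7, 4.53 and 20.5, all under the floor, and these values have no order. The mean of both probe sets falls under the floor on the IL-6/IL-23 array, which turns the ratios into bounds of 0.55 and -0.84.

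Nr1d2 was the single member above the floor on all arrays and 2-fold apart between any 2 of them, so the genes with the most similar pattern were looked up for it. Likeness was the Euclidean distance between log2 levels centred over the 3 arrays, across 8511 genes above the floor on all of them. The nearest was Zdhhc20, which encodes a palmitoyltransferase, at a distance of 0.04 with levels of 1832, 732 and 2002 on the IL-6/TGFbeta, IL-6/IL-23 and TGFbeta arrays. Next were Bin1 (0.05), Zbed5 (0.05), Pitpnc1 (0.06) and P2ry10 (0.07), whose log2 ratios for IL-6/TGFbeta over IL-6/IL-23 lay between 1.23 and 1.38. With only 3 arrays a likeness of this kind rests on 2 independent differences.

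**Figure D3:**
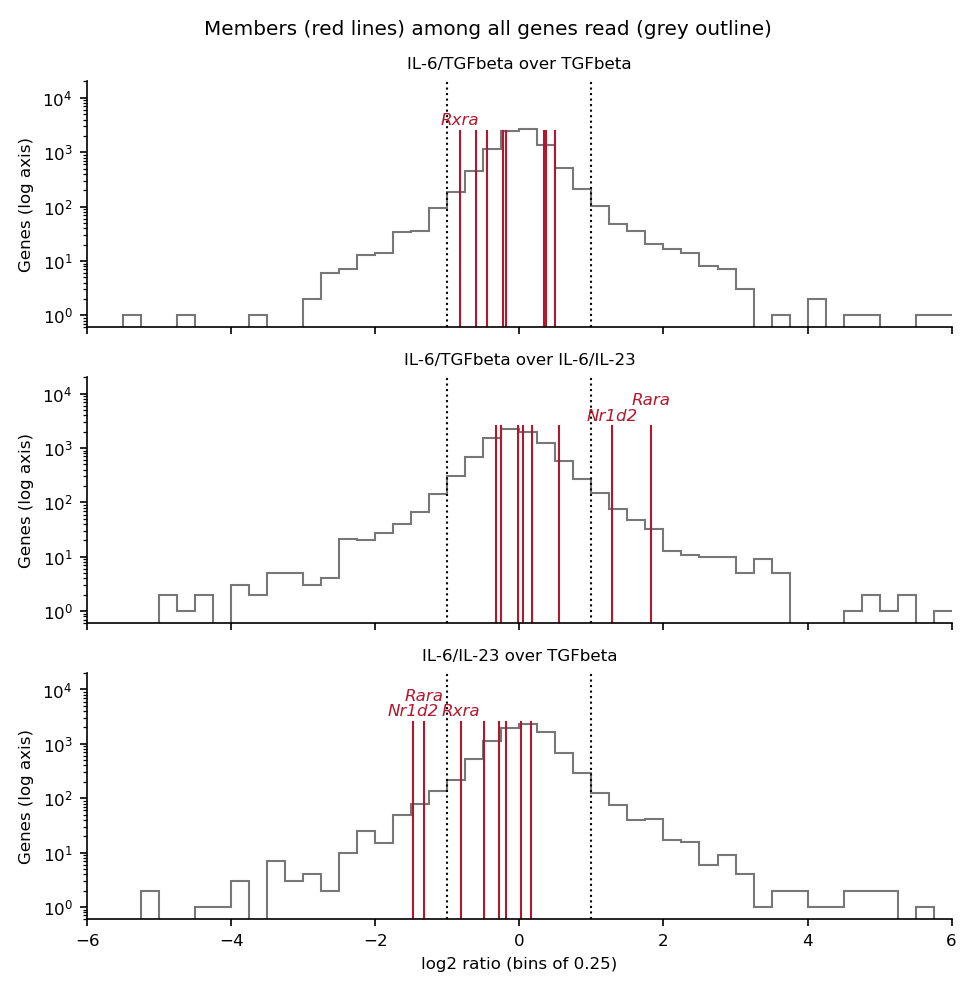
Distribution of log2 ratios over all genes read in each comparison (grey outline, number of genes per bin of 0.25 on a log axis), with the 8 members as red lines and dotted lines at 2-fold; members beyond 0.8 are named. Most members lie in the central mass, and Rara and Nr1d2 lie past 2-fold in the comparisons that use the IL-6/IL-23 array.

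The genes around the receptors were read from fixed lists. Of 20 named retinoid handling and target genes 13 were under the floor on all arrays, among them the retinaldehyde dehydrogenase genes (Aldh1a1, Aldh1a2, Aldh1a3) and the retinoic acid hydroxylases Cyp26a1 and Cyp26b1. Of the 7 that were read, 1 was higher and 1 lower for IL-6/TGFbeta over TGFbeta, with a median log2 ratio of -0.18. Against IL-6/IL-23, 0 were higher and 2 lower (median -0.25), and for IL-6/IL-23 over TGFbeta 2 were higher and 0 lower (median -0.08). With no scaling 3 were lower for IL-6/TGFbeta over TGFbeta and 4 for IL-6/IL-23 over TGFbeta, and 2 were higher for IL-6/TGFbeta over IL-6/IL-23. The mean of all probe sets gave 2 lower for IL-6/TGFbeta over TGFbeta.

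Stra6, the cell surface receptor that takes up retinol, read 119 with IL-6/TGFbeta, 348 with IL-6/IL-23 and 570 with TGFbeta. It was lowest with IL-6/TGFbeta, with log2 ratios of -2.26 over TGFbeta and -1.55 over IL-6/IL-23. The Stra6 call over IL-6/IL-23 was lost with the floor at the 99th percentile, which left 1 gene of the list lower there. Crabp2, which carries retinoic acid to its nuclear receptors, read 190, 1029 and 131 in the same order. It was thus high with IL-6/IL-23, the culture in which Rara was lowest, with a log2 ratio of 2.97 over TGFbeta. Tgm2, a transglutaminase known as a retinoic acid target in other cells, read 6668 and 3654 in the 2 cultures with IL-6 and 110 with TGFbeta. The suffix of its probe set marks probes that can match other transcripts, and whether it reads another transcript was not tested. The gut-homing integrin genes Itga4 (138, 153 and 207) and Itgb7 (821, 523 and 552) were under 2-fold apart.

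Of 16 named glucocorticoid target genes 14 were read. For IL-6/TGFbeta over TGFbeta 3 were higher and 0 lower (median log2 0.02), namely Cxcr4, Il7r and Sgk1. Over IL-6/IL-23, Sgk1 (4.86) and Cxcr4 (3.68) were higher and Per1 (-1.49) and Errfi1 (-1.09) lower, with a median of 0.17. The lower calls numbered 0 with no scaling and with the floor at the 99th percentile. For IL-6/IL-23 over TGFbeta, Il7r (1.40) was higher and Sgk1 (-3.29) lower, with a median of 0.19. In that comparison 0 were higher and 6 lower with no scaling, and 2 were lower with the mean of all probe sets. Cxcr4, a chemokine receptor, Il7r, a cytokine receptor chain, and Sgk1, a kinase, all answer to signals other than glucocorticoids. Of the other targets, Tsc22d3, which encodes GILZ, had log2 ratios between -0.49 and 0.48, and Fkbp5, a chaperone that feeds back on the receptor, read 718, 604 and 552 on the IL-6/TGFbeta, IL-6/IL-23 and TGFbeta arrays. Of 9 chaperone genes that fold steroid receptors 0 were 2-fold apart in any comparison. Hsp90aa1, for one, read 10742, 9707 and 10916.

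Of 8 named vitamin D genes only Cdkn1a, the cell cycle inhibitor p21, was above the floor, and it responds to many other signals. It read 1124 with IL-6/TGFbeta, 2828 with IL-6/IL-23 and 1939 with TGFbeta, a log2 ratio of -1.33 over IL-6/IL-23 that fell short of 2-fold with no scaling. Cyp24a1, the vitamin D hydroxylase that Vdr induces most strongly in other tissues, and Cyp27b1, the activating hydroxylase, were under the floor on all arrays.

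Of 14 liver X receptor targets 9 were read for IL-6/TGFbeta over TGFbeta, where 1 was higher and 3 lower (median log2 -0.32). Abca1 and Abcg1, which export cholesterol, were highest with TGFbeta alone: Abca1 read 31.6, 19.8 and 114 and Abcg1 read 73.2, 96.7 and 173 on the IL-6/TGFbeta, IL-6/IL-23 and TGFbeta arrays. The fatty acid desaturase gene Scd1 had the same high array, at 50.4, 118 and 225. Abca1 was at least 2.28-fold lower in both cultures with IL-6 than with TGFbeta. Abcg1 was lower with IL-6/TGFbeta (-1.24), as was Scd1 (-2.16). Pltp, a phospholipid transfer protein gene, went the other way at 488, 32.4 and 87.6. Srebf1, the lipid synthesis regulator, read 742, 783 and 594. Over IL-6/IL-23 1 of 9 was higher and 1 lower (median -0.28), and for IL-6/IL-23 over TGFbeta 0 of 10 were higher and 1 lower (median -0.53). The myeloid marker Mpeg1 had the same highest array as Abca1, Abcg1 and Scd1 and Csf1r did not, as given beside Rxra; the part of such cells in this was not tested. The count of 3 lower genes was 1 with the mean of all probe sets and 0 with the floor at the 99th percentile. The 1 lower gene for IL-6/IL-23 over TGFbeta was lost under both.

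Of 17 named PPAR genes 10 were read. Plin2, the lipid droplet protein perilipin 2, read 427 with IL-6/TGFbeta, 750 with IL-6/IL-23 and 199 with TGFbeta, and was the 1 gene higher over TGFbeta in each culture with IL-6 (1.10 and 1.91). Angptl4, a secreted inhibitor of lipoprotein lipase, read 82.0, 175 and 153 and was the 1 gene lower for IL-6/TGFbeta over IL-6/IL-23 (-1.10). Cpt1a, which brings fatty acids into mitochondria, read 736, 555 and 714. The Plin2 call for IL-6/TGFbeta over TGFbeta was lost with median scaling and with no scaling (0 genes higher), and that for IL-6/IL-23 over TGFbeta with no scaling. The Angptl4 call was lost with no scaling and with the floor at the 99th percentile. The list's medians were 0.12 and 0.20 over TGFbeta and -0.01 for IL-6/TGFbeta over IL-6/IL-23.

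Of 18 named circadian clock genes 13 were read. For IL-6/TGFbeta over TGFbeta 2 were higher and 1 lower (median log2 -0.23), over IL-6/IL-23 1 was higher and 2 lower (median -0.06), and for IL-6/IL-23 over TGFbeta 3 were higher and 2 lower (median 0.46). Arntl, which encodes the activator BMAL1 that REV-ERB proteins repress, read 165 with IL-6/TGFbeta, 163 with IL-6/IL-23 and 128 with TGFbeta, and Clock read 283, 157 and 183. Neither was 2-fold apart, although Nr1d2 was. Nfil3, a transcription factor gene that REV-ERB alpha represses, read 355, 304 and 52.3 and was high in both cultures with IL-6. Bhlhe40, a repressor of the clock, read 1406, 3884 and 1650 and was highest where Nr1d2 was lowest, as was Per1 at 91.6, 257 and 162. Csnk1e, a clock kinase gene, was higher with IL-6/IL-23 than with TGFbeta (1.47). Npas2, a partner of BMAL1, read 67.6, 12.4 and 156 and so shared the low IL-6/IL-23 array with Nr1d2. Dbp, an output gene of the clock, had the same shape close to the floor, at 59.9, 24.0 and 103. Rora, whose protein competes with REV-ERB for the same sites, read 1800.5 with IL-6/TGFbeta, 748 with IL-6/IL-23 and 507 with TGFbeta, a log2 ratio of 1.27 over IL-6/IL-23. With the floor at the 99th percentile, or the mean of all probe sets, 0 clock genes were lower for either culture with IL-6 over TGFbeta. With no scaling 3 were lower for IL-6/TGFbeta and 4 for IL-6/IL-23. The higher genes over TGFbeta numbered 1 in place of 2 for IL-6/TGFbeta with that floor. For IL-6/IL-23 they numbered 2 in place of 3 with that floor and 1 with no scaling. The lower genes over IL-6/IL-23 numbered 1 in place of 2 with that floor or no scaling.

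**Figure D4:**
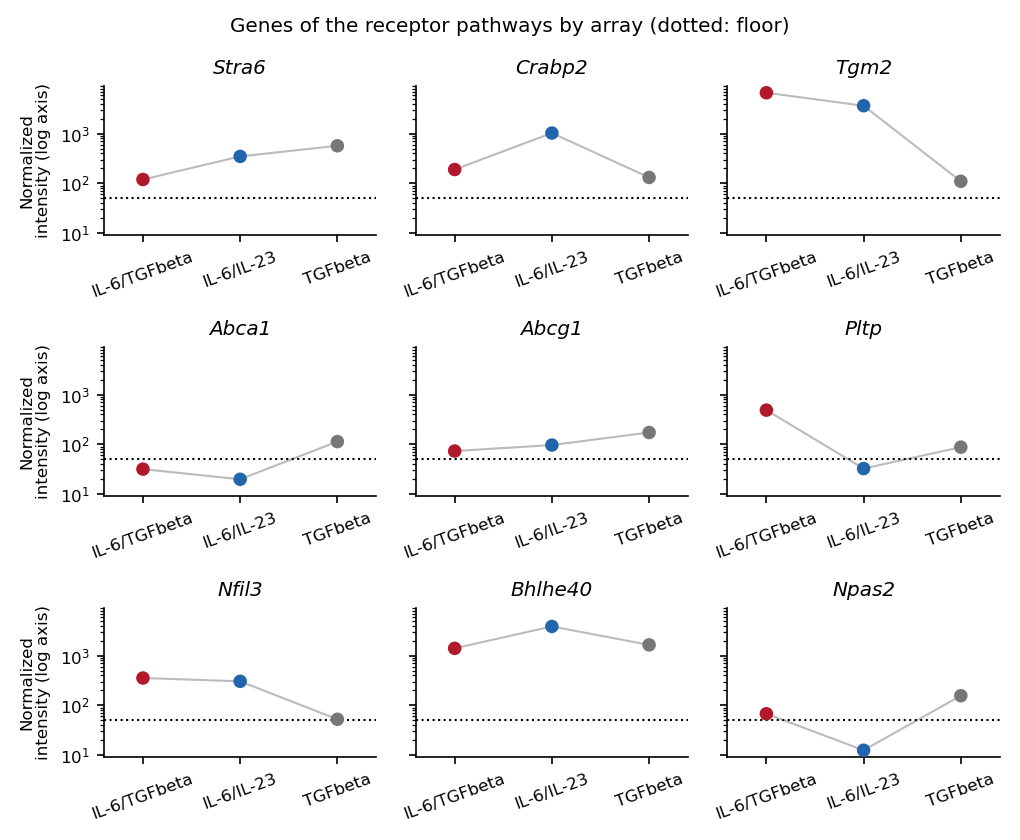
Normalized intensity (arbitrary units, log axis) of 9 genes of the receptor pathways on the IL-6/TGFbeta, IL-6/IL-23 and TGFbeta arrays, 1 array each, with the floor dotted. Stra6 is lowest with IL-6/TGFbeta, Crabp2 and Bhlhe40 are highest with IL-6/IL-23, and Abca1 and Abcg1 are highest with TGFbeta alone.

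The results that turn on the scaling were recomputed in other ways. Nr1d2 kept a log2 ratio between 1.18 and 1.83 for IL-6/TGFbeta over IL-6/IL-23 under every scaling tried, and Rara a bound between 1.62 and 1.85. As deposited, all genes read on both arrays had a median ratio of 0.42 in that comparison. Relative to that shift Nr1d2 stood at 1.41 and the Rara bound at 1.20. For IL-6/IL-23 over TGFbeta, where the median as deposited was -0.85, Nr1d2 stood at -1.63 relative to it. The Rara bound was -0.72 relative to it and no longer 2-fold, since the unscaled floor of 59.0 is high for the dimmest array.

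**Figure D5:**
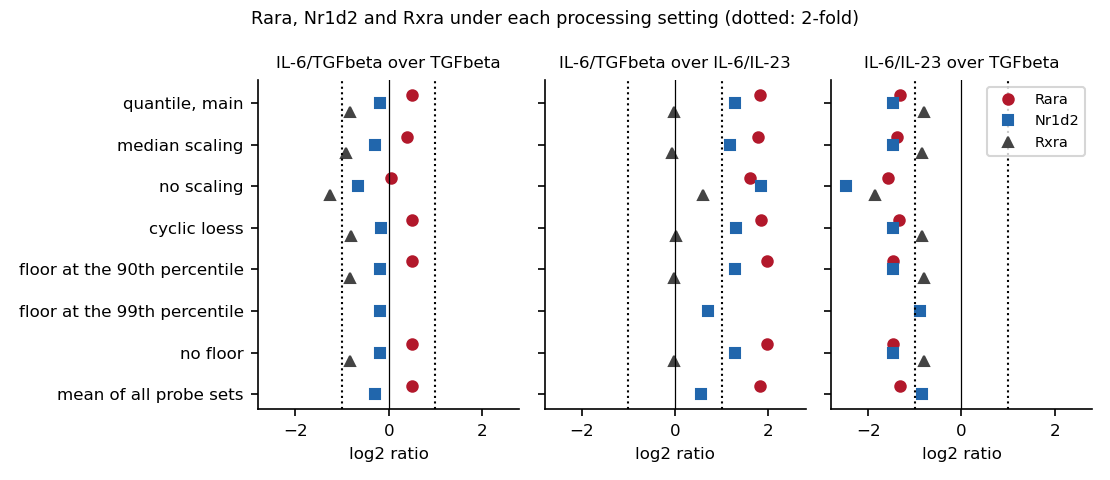
Log2 ratios of Rara, Nr1d2 and Rxra under each processing setting in the 3 comparisons, with dotted lines at 2-fold; Rara is a bound in the comparisons with IL-6/IL-23 except with the floor at the 90th percentile or without a floor. Nr1d2 falls under 2-fold with the floor at the 99th percentile and with the mean of all probe sets, in both of which its ratios to IL-6/IL-23 are bounds and Rxra has no value; Rara has none with the floor at the 99th percentile.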

How the data were processed

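Per the labels' protocols, total RNA was turned into biotin-labelled cRNA for Affymetrix mouse arrays. The authors deposited 1 linear intensity per probe set and array; how these were summarized and scaled is not given in the sources used here. Left out were 64 control probe sets, and 45037 were quantile-normalized on the log2 scale (limma 3.58.1, R 4.3.3), which removes any real difference in total mRNA. The platform annotation gave 34945 probe sets 1 symbol, 932 several and 9160 none. Each gene is read from its brightest probe set. For Tgm2, Pltp, Angptl4 and Dbp that probe set has a suffix marking probes that can match other transcripts. As floor served the 95th percentile over 150 probe sets for 88 genes of other tissues. Where 1 of 2 arrays lay at the floor, the ratio is only a bound. From each gene list at most 4 genes past 2-fold per comparison were named by size; other list genes were chosen after their values were seen. The members, lists and motifs were chosen with earlier results of these data known. The 8 alternatives tried were median scaling, no scaling, cyclic loess, floors at the 90th and 99th percentile, no floor, the mean of all probe sets, and a 1.5-fold rule. With 1 array per condition, their number limits the precision.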

Additional observations from a re-analysis of the deposited data

How the results depend on the processing

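Rerun with median scaling, cyclic loess or the floor at the 90th percentile, each member's ratio stayed within 1 probe-set SD and each count and median of members within its tolerance (1.5 times for counts). With no scaling, 2 members were lower for IL-6/TGFbeta over TGFbeta and 6 for IL-6/IL-23 over TGFbeta, and the medians were -0.67, 0.64 for IL-6/TGFbeta over IL-6/IL-23, and -1.21. These shifts carry the medians of all genes as deposited (-0.42, 0.42 and -0.85). Rxrb and Nr3c1 read -0.10 and -0.12 over TGFbeta unscaled, and 0.32 and 0.30 relative to that median, so their direction relative to other genes did not turn. With the floor at the 99th percentile (208) 3 members could be read; 0 were higher over IL-6/IL-23 and 0 lower for IL-6/IL-23 over TGFbeta, and the medians of the IL-6/TGFbeta comparisons were 0.34 over TGFbeta and 0.55 over IL-6/IL-23, from fewer genes. Without a floor 1 member (Pparg, all of whose values lie under it) was lower for IL-6/TGFbeta in both comparisons. With the mean of all probe sets, 1 member was higher over IL-6/IL-23 and 1 lower for IL-6/IL-23 over TGFbeta (Rara in both), and the medians were 0.32 over TGFbeta (5 members read) and 0.55 over IL-6/IL-23 (4 read). With a 1.5-fold rule 2 members (Rxra and Ppard) were lower for IL-6/TGFbeta over TGFbeta. Of the counts of gene lists 314 kept within 1.5 times and 118 did not. No paired analysis was possible because each condition had 1 array, and no array could be left out. Vdr and Rarg lay so near the floor that small differences could not be read.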

Other observations

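Nuclear receptors act through coregulator proteins, whose mRNAs were read here. Of 20 named coregulator genes all 20 were read, and 0 were higher and 1 lower for IL-6/TGFbeta over TGFbeta (median log2 -0.16). The lower gene was Nrip1, a corepressor that retinoic acid is known to induce, which read 293 with IL-6/TGFbeta, 315 with IL-6/IL-23 and 607 with TGFbeta (-1.05), the same shape as Rxra. Over IL-6/IL-23 1 was higher, Gps2, a subunit of the NCoR corepressor complex (242 against 105, log2 1.20), and 0 were lower (median 0.04). For IL-6/IL-23 over TGFbeta 0 were higher and 0 lower (median -0.11), and 10 were lower with no scaling. The Nrip1 call was lost with the mean of all probe sets and the Gps2 call with the floor at the 99th percentile. The coactivator genes Ncoa1, Ncoa3 and Crebbp read 406, 777 and 696 with IL-6/TGFbeta, 292, 573 and 641 with IL-6/IL-23, and 286, 582 and 772 with TGFbeta.

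Of 35 other named nuclear receptor genes 25 were under the floor on every array. Thra, a thyroid hormone receptor gene, read 118 with IL-6/TGFbeta, 93.6 with IL-6/IL-23 and 55.4 with TGFbeta, and was higher for IL-6/TGFbeta over TGFbeta (1.09) together with Rora. Lower there were Nr4a3 (-2.77) and Nr4a1 (-1.09), orphan receptors induced by T cell activation. Over IL-6/IL-23 1 of 10 was higher, Rora, and 2 were lower, Nr4a2 (-1.74) and Nr4a1 (-1.01). For IL-6/IL-23 over TGFbeta Nr4a2 was higher (1.89) and Nr4a3 lower (-1.92). The medians were 0.16, -0.34 and 0.17. The higher genes over TGFbeta numbered 1 in place of 2 with median scaling, no scaling, the floor at the 99th percentile or the mean of all probe sets. The lower genes over IL-6/IL-23 numbered 1 in place of 2 with no scaling or cyclic loess. For IL-6/IL-23 over TGFbeta, the lower call was lost with the mean of all probe sets. With no scaling the higher call there was lost and 4 genes were lower.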
